A study of Mus musculus with 8 samples.

Results

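Mouse embryonic stem (ES) cells were compared with 2 lineage-restricted cell types at once, neural precursor cells (NPC) and embryonic fibroblasts (MEF), to find what both cell types share against ES cells and which genes place them on opposite sides of ES cells. The comparison used all 8 of the 8 arrays of the series: 3 of ES cells, 3 of NPC and 2 of MEF, every group wild type. The ES cells were of the V6.5 line and had grown on irradiated feeder fibroblasts with serum and LIF (leukaemia inhibitory factor) before at least 2 passages on gelatin without feeders. The NPC had been derived in culture from ES cells, through embryoid bodies and selection in a serum-free medium, and were then expanded with FGF2 and a factor written as EGF2 in the labels, read here as EGF. The MEF were primary embryonic fibroblasts in medium with serum and no LIF. All 3 groups therefore differ in medium as well as in cell type, and these cannot be told apart. The ES cells are a single line, and the labels do not name separate cultures for the arrays. P-values therefore measure the spread among these arrays alone, and this spread may be technical.

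ES cells can form every tissue of the embryo and are held in that state by a network around the transcription factors Oct4, Sox2 and Nanog together with LIF and STAT3 signalling. They grow as tight epithelial colonies joined by E-cadherin, and they divide fast, with a short G1 phase and little D-type cyclin. Cells that leave pluripotency silence this network, in part through Polycomb complexes and DNA methylation, and take up the receptors, matrix and transcription factors of their lineage.

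Expression was read as log2(intensity + 16) from a whole-genome Affymetrix mouse oligonucleotide array after quantile normalization, which gives every array the same distribution of values. On this scale 4 stands for no signal, and a difference of 1 log2 unit is a 2-fold difference that is understated for dim genes. Differences are given as ES minus the other cells, so a positive value means higher in ES cells. Arrays of one group correlated at 0.967 to 0.992 over all probe sets and arrays of different groups at 0.858 to 0.873. The array NPC 1 stood apart from NPC 2 and NPC 3, and results that rest on it are given with it. Deposited 2% trimmed means ran from 111 to 234 with the MEF arrays brightest, so the scaling bears on the balance of higher and lower genes. Each array measured a bulk RNA sample, in which fewer cells of a type and less RNA per cell cannot be told apart.

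Tdgf1 and Dppa5a, taken as markers of the pluripotent state, were high on all 3 ES arrays and near the bottom of the range on all 5 others. Tdgf1, the Nodal co-receptor Cripto, was at 12.65, 12.72 and 12.63 on the ES arrays, 4.05, 4.04 and 4.09 on the NPC arrays and 4.03 and 4.26 on the MEF arrays. The difference from the mean of NPC and MEF was 8.56 ± 0.10 (SE; limma adjusted p = 2.89e-10). Dppa5a, an RNA-binding protein of pluripotent cells, was at 13.35, 13.40 and 13.41 in ES cells, 5.28, 5.31 and 5.20 in NPC and 5.16 and 5.38 in MEF, a difference of 8.12 ± 0.08 (limma adjusted p = 2.09e-10). NPC and MEF were close to each other for both genes, with NPC minus MEF at -0.09 for Tdgf1 and -0.01 for Dppa5a.

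Bmi1 and Zeb1, taken as markers of the lineage-restricted state, were low on every ES array. Bmi1, a subunit of Polycomb repressive complex 1 that sustains self-renewal of neural and other tissue stem cells, was at 6.78, 6.80 and 6.52 in ES cells, 10.62, 10.41 and 10.37 in NPC and 9.35 and 9.26 in MEF. It differed by -3.18 ± 0.10 from the mean of the other cell types (limma adjusted p = 3.13e-08). Zeb1, a repressor of epithelial genes, was at 7.25, 7.42 and 7.64 in ES cells, 12.21, 11.40 and 11.55 in NPC and 9.69 and 9.72 in MEF. Its difference was -3.27 ± 0.18 (limma adjusted p = 6.48e-07). The ES arrays did not overlap the others for either gene, and NPC stood above MEF for both, by 1.16 for Bmi1 and 2.01 for Zeb1. When the probe sets of Zeb1 were averaged, its ES minus MEF difference was -0.93 and no longer reached 1 log2 unit.

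Against the mean of NPC and MEF, with both cell types weighted equally, 3912 of 18193 genes differed (21.5%; limma adjusted p under 0.05 and at least 1 log2 unit). Of these, 2074 were higher in ES cells (11.4%) and 1838 lower (10.1%). A difference from the mean does not require that both cell types differ. Of the 2074 genes, 1414 were higher in ES cells than in each of NPC and MEF (7.77% of all genes), 332 were called against NPC alone and 318 against MEF alone. Of the 1838 genes, 855 were lower in ES cells than in each (4.70%), 401 were called against NPC alone and 545 against MEF alone, and for 1 gene neither single difference was called. Another 52 genes were higher in NPC and lower in MEF than in ES cells (0.286%), and 181 were higher in MEF and lower in NPC (0.995%). Taken singly, ES cells were higher than NPC in 12.9% of genes and lower in 10.0%, and higher than MEF in 12.8% and lower in 12.2%. Called against 1 cell type alone were genes higher than in NPC (4.12%), lower than in NPC (5.06%), higher than in MEF (4.73%) and lower than in MEF (6.55%). The comparisons with NPC and with MEF share the ES arrays, so both contain the same error of the ES mean.

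The balance of the shared genes depends on the scaling. Genes higher in ES cells made up 62.3% of the genes shared by both comparisons after quantile normalization, 52.9% after centring arrays on their medians and 44.1% with the deposited scaling. For the mean contrast these shares were 53%, 43.2% and 34.4%. With the deposited scaling the median difference over all genes was -0.12, against 0.02 after quantile normalization. Without NPC 1, the counts were 1439 shared higher, 906 shared lower, 54 with NPC above and MEF below, and 198 with MEF above and NPC below.

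**Figure D1:**
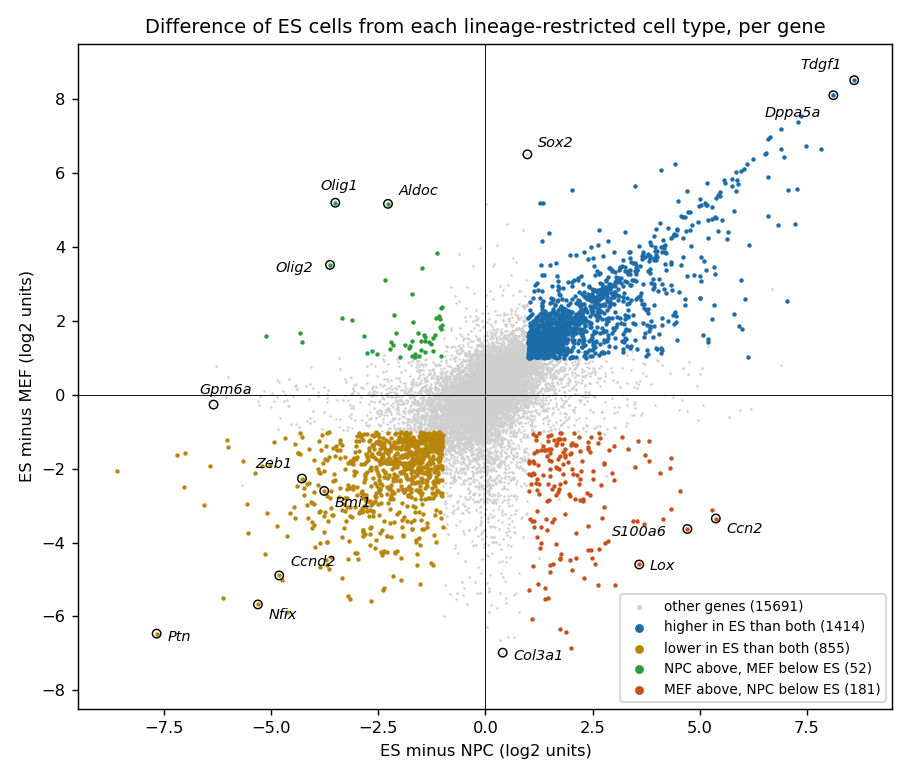
Each point is 1 of 18193 genes, with its ES minus NPC difference on the horizontal axis and its ES minus MEF difference on the vertical axis, both in log2 units. Coloured points were called against both cell types, 1414 higher and 855 lower in ES cells than in both, and the 52 and 181 genes of the opposite quadrants; circles mark named genes, among them Sox2, which lies far above 0 against MEF and near 1 against NPC.

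The 10 genes with the greatest smaller difference above both cell types were Tdgf1, Dppa5a, Pou5f1, Zfp42, L1td1, Nanog, Sall4, Chchd10, Fbxo15 and Trap1a, among them Pou5f1 and Nanog of the pluripotency network. Pou5f1, which encodes Oct4, was at 11.95, 11.99 and 12.08 on the ES arrays, 4.47, 4.59 and 4.88 on the NPC arrays and 4.05 and 4.89 on the MEF arrays. Nanog, a homeodomain factor of the network, was at 11.70, 11.71 and 11.39 in ES cells, 4.20, 4.04 and 4.10 in NPC and 4.87 and 4.86 in MEF. No NPC or MEF array came within 6 log2 units of the lowest ES array for either gene. Zfp42 (Rex1, a zinc finger protein) differed by 7.29 ± 0.13 from NPC and 7.40 ± 0.15 from MEF, and L1td1, an RNA-binding protein, by 6.90 ± 0.14 and 7.20 ± 0.15. Sall4, a zinc finger factor of early embryonic cells, was 6.90 ± 0.15 above NPC and 6.66 ± 0.17 above MEF.

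Fbxo15, an F-box protein under Oct4 and Sox2 control, differed by 6.64 ± 0.15 from NPC and 6.98 ± 0.17 from MEF. Trap1a, the X-linked tumour antigen P1A, differed by 6.61 ± 0.16 and 6.93 ± 0.18. Chchd10, a protein of the mitochondrial intermembrane space, was at 13.08, 13.10 and 13.02 in ES cells, 5.42, 5.20 and 5.06 in NPC and 6.57 and 6.25 in MEF. It was the gene of the 10 with the greatest gap between the other cell types, with NPC below MEF by 1.18.

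The shared high genes were also compared between NPC and MEF, where differences between dim levels are understated. The share of all genes within 0.25 log2 units was not counted. Of the 1414, 629 differed by at most 0.25 log2 units between NPC and MEF, and 199 were called between them, 147 of these higher in MEF and 52 higher in NPC (of all genes, 7.95% were higher in NPC and 10.5% lower). The median levels were 8.08 in ES cells, 5.42 in NPC and 5.77 in MEF. The smaller of the differences had a median of 1.56, with 444 genes at 2 log2 units or more, 80 at 4 or more and 39 at 5 or more. The ES arrays lay above the other 5 arrays for 1413 of the 1414 genes, an order found in 21.7% of all genes (the ES arrays lay apart in either direction in 36.6%). The 1414 genes were chosen for their calls on these same arrays, so this order largely follows from the choice.

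**Figure D2:**
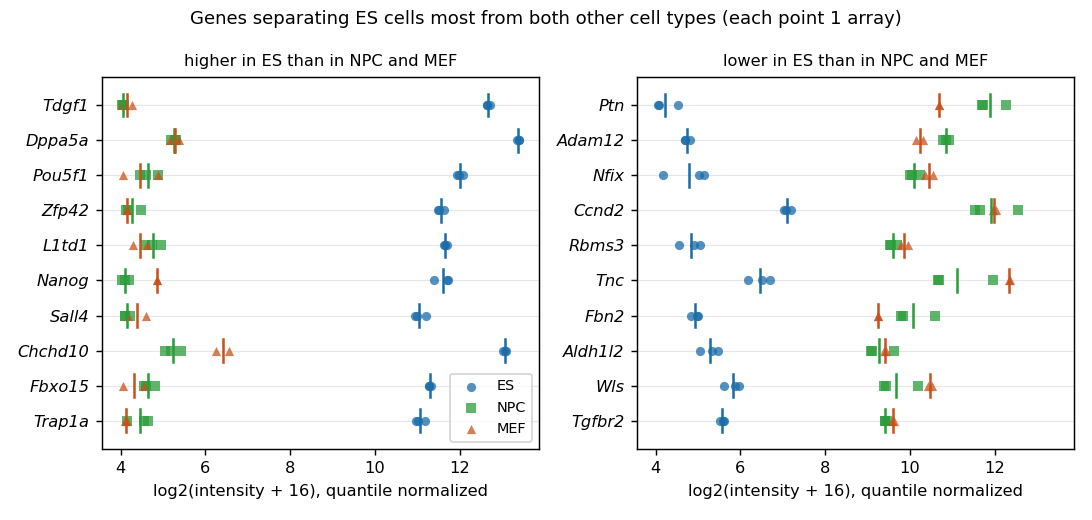
Points are single arrays on the log2(intensity + 16) scale (ES, NPC and MEF by colour and symbol) for the 10 genes with the greatest shared difference in each direction, with group means as vertical lines. Among genes higher in ES cells the NPC and MEF points of Tdgf1 lie together at the lower end of the scale (4.03 to 4.26) while those of Chchd10 are apart, and among genes lower in ES cells the ES points lie at the lower end for Ptn (4.06 to 4.52) and further up for Ccnd2 (7.03 to 7.19).

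Of 33 measured pluripotency factors and ES-restricted genes, 31 were higher in ES cells than in both, with a median difference of 5.46 from the mean of NPC and MEF, against 0.02 over all genes. The exceptions were Sox2 and Trim28, each called against MEF alone; for Trim28 that call ended with median centring, with the deposited scaling and without ES 3. Sox2, which acts with Oct4 in ES cells and also maintains neural stem cells, was at 12.14, 12.09 and 11.91 in ES cells, 11.61, 10.87 and 10.72 in NPC and 5.56 and 5.51 in MEF. Its ES minus MEF difference was 6.51 ± 0.23, and its ES minus NPC difference of 0.98 ± 0.20 was just under 1 log2 unit. Its mean contrast, 3.75 ± 0.18 (limma adjusted p = 3.47e-07), therefore rests mostly on MEF.

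Nodal signalling, which primes ES cells for germ layer formation, had 8 of 14 measured members higher in ES cells than in both. Lefty1, a secreted Nodal inhibitor, was at 11.43, 11.43 and 11.48 in ES cells, 4.21, 4.68 and 4.28 in NPC and 5.91 and 5.91 in MEF. The ligand Nodal was 4.57 ± 0.23 above NPC and 4.83 ± 0.26 above MEF, and the inhibitor Lefty2 5.35 ± 0.15 and 4.82 ± 0.17. The type I activin receptor Acvr1b differed by 1.49 ± 0.09 from NPC and 1.77 ± 0.10 from MEF, and by 0.99 and 0.50, under the threshold, with the mean of probe sets. The shared high genes thus included the ligand Nodal, the co-receptor Tdgf1, the receptor Acvr1b and both Lefty inhibitors. Not all members went this way: 1 was higher in ES cells than in MEF alone, 2 were lower than in MEF alone and 3 were called against neither. Of 24 measured germline and meiosis genes, 17 were higher in ES cells than in both and 1 more than in MEF alone. Among them, Sycp3, a component of the meiotic chromosome axis, differed by 5.12 ± 0.17 from NPC and 5.19 ± 0.19 from MEF, and Rnf17, a tudor protein of germ cells, by 5.29 ± 0.14 and 5.08 ± 0.15.

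Epithelial genes were the largest other group with a shared difference. Of 31 measured genes of epithelial junctions and adhesion, 25 were higher in ES cells than in both cell types and 3 than in NPC alone, with a median difference of 2.75 from the mean. Epcam, an adhesion molecule of epithelia, was at 10.64, 10.72 and 10.73 on the ES arrays, 4.20, 4.16 and 4.08 on the NPC arrays and 4.17 and 4.11 on the MEF arrays. Cdh1, which encodes E-cadherin, was at 11.21, 11.01 and 10.95 in ES cells, 4.49, 4.13 and 4.73 in NPC and 5.28 and 5.03 in MEF. All 3 groups of arrays were apart from each other for Cdh1, whereas NPC and MEF overlapped for Epcam. Cldn7, a tight junction claudin, differed by 4.82 ± 0.17 from NPC and 4.59 ± 0.19 from MEF, and the apical polarity protein Crb3 by 2.34 ± 0.20 and 1.74 ± 0.22. Krt19, a keratin of simple epithelia, was the exception in direction, above ES cells in MEF and below them in NPC.

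Transcriptional repressors of epithelial genes, listed together with mesenchymal factors such as Prrx1, were split by lineage. Of 12 measured, Zeb1, Zeb2 and Twist1 were lower in ES cells than in both. Zeb2 was at 4.49, 4.70 and 4.53 in ES cells, 6.89, 6.75 and 6.88 in NPC and 7.45 and 7.55 in MEF, with no overlap of groups. Twist1, a basic helix-loop-helix factor, differed by -1.83 ± 0.29 from NPC and -3.01 ± 0.32 from MEF. Prrx1, Twist2, Snai1, Foxc2 and Snai2 were lower in ES cells than in MEF alone. Snai2 (Slug) was 5.36 ± 0.54 below MEF, while its ES minus NPC difference was -0.12 ± 0.49, and Snai1 was 3.50 ± 0.19 below MEF, with an ES minus NPC difference of 0.54 ± 0.17. Snai3 was higher in ES cells than in both, by 1.73 ± 0.17 and 1.71 ± 0.19.

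Zeb and Snail proteins bind the E-box CAGGTG, which reads CACCTG on the opposite strand. The 250 bases before each start site, from the RefSeq promoter table (GRCm38.p6), were searched for it on both strands. It was present for 14 of the 19 epithelial genes higher in ES cells than in both that have an entry (73.7%), for 307 of 1132 genes higher in ES cells than in both (27.1%), for 94 of 667 lower than in both (14.1%), and for 2864 of 14368 of all genes tested (19.9%). Counted by window, it was in 16 of the 24 windows of the epithelial genes (66.7%) and in 17.2% of all windows, with a mean GC content of 60.4% and 57.7%. Windows of 1 gene can overlap and hold the same matches, as those of Crb3 do. Among genes with a single window it was present for 10 of 14 epithelial genes and 1995 of 11720 of all genes tested. The octamer ATGCAAAT, bound by Oct4 and other POU factors, was in 1 of 21 pluripotency genes with an entry (4.76%) and in 1.57% of all genes tested. These matches describe the letters in the window and show no binding. The windows of 4 epithelial genes with several matches are printed as examples, with Spint1, a protease inhibitor of epithelia without a match, for contrast. They run 5′ to 3′ on the strand of the gene and end at the base before the start site, with matches on either strand in capitals: Epcam at chr17:87635729-87635978, plus strand; the second window of Cldn7 at chr11:69965171-69965420, plus strand; the first window of Crb3 at chr17:57061951-57062200, plus strand; Spint2, another protease inhibitor, at chr7:29281978-29282227, minus strand; and Spint1 at chr2:119237110-119237359, plus strand.
Epcam: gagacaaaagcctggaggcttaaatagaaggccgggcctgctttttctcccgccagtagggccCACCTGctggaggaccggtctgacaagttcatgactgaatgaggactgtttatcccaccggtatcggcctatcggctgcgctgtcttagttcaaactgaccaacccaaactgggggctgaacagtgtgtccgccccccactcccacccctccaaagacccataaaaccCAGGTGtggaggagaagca
Cldn7: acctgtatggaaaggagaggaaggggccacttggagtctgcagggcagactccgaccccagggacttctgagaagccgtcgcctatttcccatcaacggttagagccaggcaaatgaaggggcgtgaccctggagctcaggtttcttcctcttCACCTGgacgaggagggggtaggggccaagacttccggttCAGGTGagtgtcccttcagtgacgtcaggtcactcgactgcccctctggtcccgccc
Crb3: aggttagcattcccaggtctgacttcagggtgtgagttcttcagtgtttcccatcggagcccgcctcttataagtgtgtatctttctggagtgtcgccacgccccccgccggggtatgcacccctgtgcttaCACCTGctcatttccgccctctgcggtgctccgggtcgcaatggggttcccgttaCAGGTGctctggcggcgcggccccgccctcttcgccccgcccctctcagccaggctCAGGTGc
Spint2: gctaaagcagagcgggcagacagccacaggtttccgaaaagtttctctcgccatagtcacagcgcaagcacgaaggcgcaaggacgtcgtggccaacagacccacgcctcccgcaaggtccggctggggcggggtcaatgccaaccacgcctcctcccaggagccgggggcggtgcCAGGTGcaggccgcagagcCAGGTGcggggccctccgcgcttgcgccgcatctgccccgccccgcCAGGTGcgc
Spint1: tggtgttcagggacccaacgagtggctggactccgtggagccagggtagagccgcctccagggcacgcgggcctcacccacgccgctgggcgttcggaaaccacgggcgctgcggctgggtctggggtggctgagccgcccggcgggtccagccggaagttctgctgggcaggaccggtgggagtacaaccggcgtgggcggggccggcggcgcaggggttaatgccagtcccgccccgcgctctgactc
The matches began 187 and 19 bases before the start of Epcam and 97 and 57 before that of Cldn7. For Crb3 they began 118, 63 and 7 bases before the start, and for Spint2 74, 55 and 9. Counted from the second start of Crb3, the same matches began at 148, 93 and 37 bases. Among genes not printed, Lsr had matches at 249, 219, 151 and 69 bases and Krt8 at 111. Ap1m2 had them at 81, 51, 21 and 9 bases and Cldn4 at 14. In expression, Spint1 without a match differed by 4.12 ± 0.17 from NPC and 3.87 ± 0.19 from MEF, and Spint2 with 3 matches by 5.67 ± 0.18 and 4.40 ± 0.20. The sequences of Cdh1, Dsg2, Esrp1, Grhl2, Pkp3 and St14 were not analysed here.

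Chromatin regulators did not move as whole complexes: within Polycomb repressive complex 1, paralogous subunits went opposite ways. Of 20 measured members, Cbx7, Phc1, Pcgf6 and L3mbtl2 were higher in ES cells than in both, and Bmi1, Phc2 and Yaf2 lower; with the deposited scaling these counts of 4 and 3 were 2 and 5. Cbx7, a chromodomain subunit that reads trimethylated H3K27, was at 9.25, 9.17 and 9.63 in ES cells, 4.18, 4.15 and 5.38 in NPC and 4.26 and 4.51 in MEF. The Polyhomeotic paralogues mirrored each other. Phc1 was at 11.52, 11.40 and 11.76 in ES cells, 8.60, 8.69 and 8.38 in NPC and 7.74 and 7.67 in MEF, and Phc2 at 7.81, 7.60 and 7.31, then 10.30, 10.25 and 10.17, then 10.04 and 10.07. The PCGF paralogues did likewise, with Pcgf6 1.45 ± 0.08 above NPC and 1.58 ± 0.09 above MEF while Bmi1 (Pcgf4) was 3.76 ± 0.11 and 2.60 ± 0.12 below. For Pcgf6 the ES minus MEF difference was 0.78 with the deposited scaling, under the threshold.

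Of 11 measured members of Polycomb repressive complex 2, Mtf2, Jarid2, Ezh1, Suz12 and Eed were higher in ES cells than in both and none was lower; the count of 5 was 3 after median centring and with the deposited scaling, and 2 with the mean of probe sets. Jarid2, which guides the complex to its targets, was at 10.90, 10.88 and 10.93 in ES cells, 8.69, 8.23 and 8.43 in NPC and 6.70 and 7.12 in MEF. The core subunits differed less, Suz12 by 1.30 ± 0.10 and 1.30 ± 0.11 and Eed by 1.22 ± 0.07 and 1.39 ± 0.08. Ezh2, the main methyltransferase, was 0.44 ± 0.11 from NPC and 1.09 ± 0.12 from MEF, called against MEF alone; the latter was 0.62 after median centring and 0.29 with the deposited scaling, under the threshold. The call for Ezh1 was lost with the mean of probe sets (0.92 and 0.79) and without suffixed probe sets (0.25 and 0.20). Suffixed probe sets are those whose letter suffix marks several matched transcripts, of 1 gene (a) or of different genes (s and x). Genes with no other probe set were not measured without them, so counts in that alternative can also fall by missing genes. Of 13 measured Trithorax members, Ash2l, Wdr5, Dpy30 and Rbbp5, which form the core around H3K4 methyltransferases, were higher in ES cells than in both, and with the deposited scaling 2 were; with the mean of probe sets the ES minus NPC difference of Ash2l was 0.71.

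Of 12 measured genes of DNA methylation, the enzyme-related genes Dnmt3l, Tet1 and Dnmt3b were higher in ES cells than in both, and the methyl-CpG binding genes Mbd2 and Mbd1 lower. With the mean of probe sets no member was lower than in both: Mbd2 was -0.93 from NPC, and Mbd1 -0.77 from NPC and -0.59 from MEF. Tet1, which oxidises 5-methylcytosine, was at 11.38, 11.32 and 11.27 in ES cells, 7.21, 7.31 and 7.15 in NPC and 5.26 and 5.19 in MEF, with 3 separate levels. Dnmt3b, a de novo methyltransferase, was at 9.56, 9.63 and 9.60 in ES cells, 5.96, 6.26 and 6.06 in NPC and 6.14 and 6.01 in MEF. Dnmt3l, its catalytically inactive partner, differed by 5.51 ± 0.14 and 4.74 ± 0.15. Dnmt1, the maintenance enzyme, differed by 0.02 ± 0.08 from NPC and 0.44 ± 0.09 from MEF and was called against neither. Without suffixed probe sets the Mbd1 differences were -0.13 and -0.09. Dnmt3l and Dnmt3b have no unsuffixed probe set and were not measured there, which left 1 member higher than in both.

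Of 25 measured BAF (SWI/SNF) subunits, none was higher in ES cells than in both (7.77% of all genes), and Smarca2, Smarcd3 and Smarcc2 were lower (4.70% of all genes). Another 3 were higher than in MEF alone, 1 higher than in NPC alone, 3 lower than in NPC alone and 1 lower than in MEF alone. With a pseudocount of 64 the ES minus MEF difference of Smarcc2 was -0.80, under the threshold. Smarca2, which encodes the BRM ATPase, was at 4.38, 4.98 and 4.48 in ES cells, 8.07, 7.74 and 7.75 in NPC and 7.25 and 7.05 in MEF. Its paralogue Smarca4 (BRG1), the ATPase of the ES cell complex, differed by -0.05 ± 0.08 from NPC and 0.16 ± 0.09 from MEF. The Smarca2 call was lost without suffixed probe sets, where its differences were -0.70 and -0.68.

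**Figure D3:**
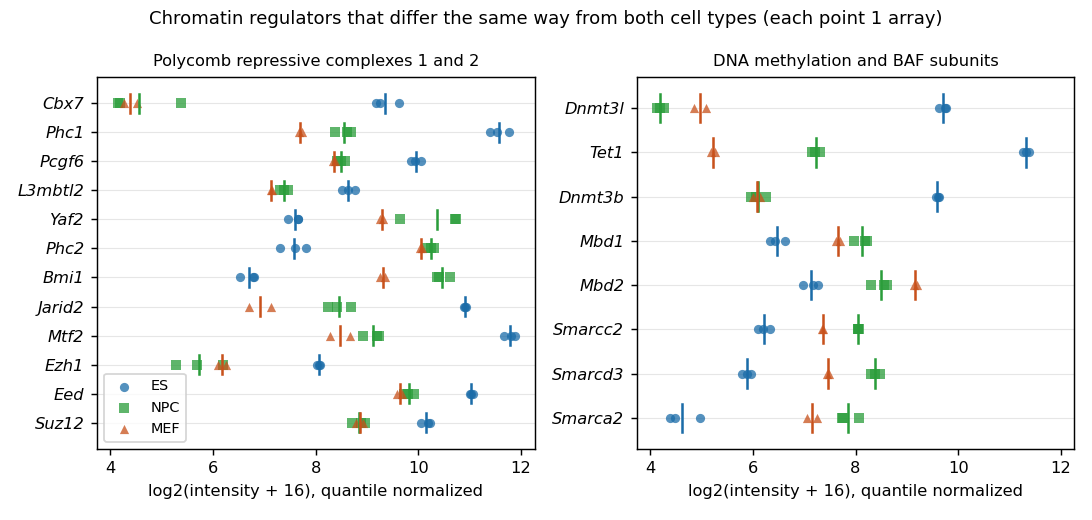
Points are single arrays on the log2(intensity + 16) scale for the chromatin regulators called in the same direction against NPC and MEF, with Polycomb members on the left, DNA methylation and BAF members on the right and group means as vertical lines. Phc1 and Phc2 lie as mirror images, with ES cells at 11.40 to 11.76 for Phc1 and at 7.31 to 7.81 for Phc2.

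Cyclins D1 and D2, which drive the G1 phase, were low in ES cells. Of 15 measured D cyclin and CDK inhibitor genes, Ccnd2, Cdkn2c, Ccnd1 and Rbl2 were lower than in both, and none was higher than in both. Ccnd2 (cyclin D2) was at 7.03, 7.19 and 7.08 in ES cells, 12.55, 11.53 and 11.65 in NPC and 11.95 and 12.03 in MEF, which is 28.1-fold below NPC and 29.7-fold below MEF on this scale. NPC and MEF overlapped, with a difference of -0.08 between their means. Ccnd1 (cyclin D1) was at 9.46, 9.39 and 9.33, then 12.28, 12.45 and 12.50, then 10.61 and 10.68, so NPC stood above MEF by 1.77. Cdkn2c (p18, an inhibitor of CDK4 and CDK6) was 3.69 ± 0.11 below NPC and 2.73 ± 0.13 below MEF. Cyclin D3 (Ccnd3) was not part of this pattern and was called higher in ES cells than in NPC alone (0.74 when its probe sets were averaged, under the threshold).

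Genes of DNA replication and mitosis included members higher in ES cells, by counts that depend on the scaling. Of 26 measured replication and G1/S genes, 8 were higher than in both and Ccne2 (cyclin E2) was lower; of 22 mitosis genes, 10 were higher. After median centring these counts were 5 and 4, and with the deposited scaling 4 and 0. Orc1, a subunit of the origin recognition complex, differed by 2.60 ± 0.13 from NPC and 1.85 ± 0.14 from MEF, and the mitotic checkpoint kinase Bub1b by 1.92 ± 0.09 and 1.64 ± 0.10. With the deposited scaling, Bub1b was 0.83 above MEF and was not called.

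Glucose uptake and glycolysis had 8 of 22 measured members higher in ES cells than in both and 7 higher than in NPC alone (4.12% of all genes); with the deposited scaling 4 were higher than in both. Slc2a3, the glucose transporter GLUT3, was at 12.53, 12.51 and 12.58 in ES cells, 6.24, 5.80 and 5.79 in NPC and 7.70 and 7.70 in MEF. Pdk1, the kinase that holds back pyruvate dehydrogenase, differed by 5.33 ± 0.14 from NPC and 2.42 ± 0.16 from MEF. NPC were the lower of the 2 cell types for Slc2a3, Pdk1 and Slc2a1 (GLUT1), by 1.76, 2.91 and 1.87. The exceptions lay in the opposite classes, Aldoc in NPC and the lactate exporter Slc16a3 in MEF.

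Of 12 measured genes of the LIF pathway, the feedback and target genes Socs3, Socs2, Pim3 and Pim1 were higher in ES cells than in both, and the transducers Jak2 and Stat3 lower. Il6st, which encodes the shared receptor chain gp130, was in the opposite class, at 1.19 ± 0.08 for ES minus NPC and -1.12 ± 0.09 for ES minus MEF; with the mean of probe sets the former was 0.86. With the deposited scaling the ES minus MEF difference of Pim1 was 0.85. Socs3, the feedback inhibitor induced by STAT3, was at 10.64, 10.69 and 10.63 in ES cells, 6.53, 5.64 and 5.80 in NPC and 7.99 and 8.14 in MEF. Stat3 itself was at 8.68, 8.70 and 8.91, then 9.58, 9.98 and 10.18, then 9.87 and 10.05. The difference of Stat3 was -0.70 from NPC and -0.38 from MEF with the mean of probe sets, under the threshold, and without suffixed probe sets -0.53 from MEF. LIF was in the medium of the ES cells, and its part in these differences was not tested.

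The Lin28 group also went both ways. Of 8 measured, Lin28a, Mycn, Trim71 and Lin28b were higher in ES cells than in both, and Myc and Hmga2 lower. Lin28a, which blocks maturation of let-7 microRNAs, was at 10.18, 10.19 and 10.17 in ES cells, 4.02, 4.25 and 4.34 in NPC and 4.20 and 4.05 in MEF. Hmga2, an architectural chromatin protein and a known let-7 target, was at 6.78, 6.88 and 7.05, then 9.64, 8.36 and 8.60, then 11.89 and 11.96. The Myc paralogues were reversed, with Mycn 4.50 ± 0.12 above NPC and 5.26 ± 0.14 above MEF and Myc 4.00 ± 0.13 and 3.53 ± 0.14 below. For Mycn, which has further probe sets that disagree, the ES minus NPC difference was 0.72 with the mean of probe sets.

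The 10 genes with the greatest smaller difference below both cell types were Ptn, Adam12, Nfix, Ccnd2, Rbms3, Tnc, Fbn2, Aldh1l2, Wls and Tgfbr2. Ptn, the heparin-binding growth factor pleiotrophin, was at 4.08, 4.52 and 4.06 on the ES arrays, 12.25, 11.72 and 11.70 on the NPC arrays and 10.68 and 10.69 on the MEF arrays. Adam12, a membrane metalloprotease, was at 4.69, 4.70 and 4.82 in ES cells, 10.84, 10.78 and 10.92 in NPC and 10.14 and 10.30 in MEF. Both were near the lower end of the scale in ES cells and higher in NPC than in MEF. Tnc, the matrix protein tenascin C, was at 6.70, 6.17 and 6.52 in ES cells, 11.95, 10.68 and 10.66 in NPC and 12.35 and 12.33 in MEF. Fbn2, the microfibril protein fibrillin 2, differed by -5.14 ± 0.20 from NPC and -4.31 ± 0.22 from MEF, Rbms3, an RNA-binding protein, by -4.75 ± 0.14 and -5.02 ± 0.16, and Wls, which carries Wnt proteins to the cell surface, by -3.86 ± 0.21 and -4.65 ± 0.23.

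Some of these genes rose to a like level in NPC and MEF. Tgfbr2, the type II TGF-beta receptor, was at 5.58, 5.60 and 5.51 in ES cells, 9.40, 9.41 and 9.45 in NPC and 9.56 and 9.62 in MEF, with NPC minus MEF at -0.17. Aldh1l2, a mitochondrial folate enzyme, was at 5.04, 5.32 and 5.48, then 9.62, 9.09 and 9.08, then 9.44 and 9.38. Nsg1, a neuronal vesicle protein, was 3.76 ± 0.30 below NPC and 3.70 ± 0.33 below MEF, and Fat4, an atypical cadherin, was 3.25 ± 0.28 below NPC and 3.42 ± 0.31 below MEF. Of the 855 shared low genes, 234 differed by at most 0.25 log2 units between NPC and MEF. Another 236 were called between them, 130 higher in NPC and 106 higher in MEF. The median levels were 6.08 in ES cells, 8.37 in NPC and 8.25 in MEF. The smaller difference had a median of 1.53, and 216 genes reached 2 log2 units, 7 reached 4 and 3 reached 5. The ES arrays lay below the other 5 for 849 of the 855 genes, against 14.9% of all genes. Here too the order largely follows from the choice of the genes.

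The nuclear factor I, Meis and Pbx transcription factors, which act in the patterning of many tissues, were low in ES cells. Of 12 measured, 8 were lower in ES cells than in both and none was higher than in either, with a median difference of -1.82 from the mean; without suffixed probe sets 5 were lower. Nfix was at 5.03, 5.14 and 4.17 in ES cells, 10.00, 10.23 and 10.03 in NPC and 10.36 and 10.55 in MEF. Without its suffixed probe set the ES minus NPC difference of Nfix was -0.91. Nfia, which acts in glial and neural fate, was at 4.27, 4.15 and 4.14, then 11.24, 11.22 and 11.20, then 6.70 and 6.63, so that MEF lay between ES cells and NPC. Nfib was 4.23 ± 0.12 below NPC and 2.52 ± 0.14 below MEF. Meis1 and Meis2, homeodomain partners of Hox proteins, differed by -2.10 ± 0.32 and -2.26 ± 0.15 from NPC and by -1.84 ± 0.36 and -2.56 ± 0.17 from MEF; without suffixed probe sets the latter was -0.82, under the threshold.

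Of 33 measured Hox genes, 20 were lower in ES cells than in MEF alone (6.55% of all genes), and Hoxd8, Hoxa5 and Hoxa3 were lower than in both. Hoxa5 was at 5.22, 5.29 and 5.11 in ES cells, 8.67, 8.63 and 8.50 in NPC and 6.87 and 6.94 in MEF; with the mean of probe sets its ES minus MEF difference was -0.94. Hoxa3 lay at the threshold against MEF (-1.02 ± 0.19) and fell under it in several alternatives. Without NPC 1, 5 Hox genes were lower than in both, and with a pseudocount of 64 or the mean of probe sets 1 was.

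Signalling components of the BMP and TGF-beta families had 6 of 27 measured members lower in ES cells than in both, 9 lower than in MEF alone and none higher than in both. Beside Tgfbr2 these were Id3, Bmp1, Id2, Ltbp3 and Bmpr2. Id3, a dominant-negative helix-loop-helix protein induced by BMP, was at 6.43, 6.63 and 6.41 in ES cells, 10.26, 10.16 and 10.12 in NPC and 11.14 and 11.08 in MEF. Id2 was 2.81 ± 0.30 below NPC and 2.14 ± 0.33 below MEF, and without suffixed probe sets its ES minus MEF difference was -0.76, under the threshold. Inhba, Smad6 and Tgfb1 belonged to the opposite class with MEF above and NPC below ES cells; with the mean of probe sets the ES minus NPC differences of Inhba and Tgfb1 were 0.72 and 0.32, and 1 member was in this class.

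Growth factor ligands and receptors had a few members on each side. Of 23 measured FGF, EGF and PDGF members, Egfr, Pdgfc and Fgfr1 were lower in ES cells than in both, and Fgf4 and Erbb3 higher. Of all genes, 4.70% were lower and 7.77% higher than in both, so these small counts are not read as a trait of the group. The count of 3 was 5 with median centring or the deposited scaling and 1 without suffixed probe sets. In that alternative Fgfr1, an FGF receptor, was -0.48 from NPC and -0.82 from MEF and was not called. Egfr, the EGF receptor, was at 4.31, 4.97 and 5.03 in ES cells, 10.76, 9.97 and 10.17 in NPC and 8.43 and 8.58 in MEF. Fgf4, the FGF made by ES cells, was at 10.48, 10.43 and 10.73, then 4.63, 4.04 and 4.21, then 4.27 and 4.06. Spry2 and Spry4, feedback inhibitors of FGF signalling, were above ES cells in NPC and below them in MEF, with Spry2 at -1.32 ± 0.08 for ES minus NPC and 1.43 ± 0.09 for ES minus MEF; the latter was 0.96 after median centring, 0.64 with the deposited scaling and 0.42 with the mean of probe sets. For Spry4 it was 0.93 and 0.77 in the last 2, so that neither gene was then in this class. In the IGF axis, 3 of 13 measured members, Igfbp5, Igfbp4 and Igf1r, were lower than in both, and Igf2bp1 was higher.

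Notch pathway genes went both ways. Of 22 measured, Dtx1, Notch4, Rbpj, Mfng and Notch3 were higher in ES cells than in both (7.77% of all genes), and Jag1, Lfng and Maml1 lower (4.70%). Rbpj, the DNA-binding effector of the pathway, was at 10.77, 10.87 and 10.61 in ES cells, 8.50, 8.54 and 8.30 in NPC and 9.23 and 9.29 in MEF. Jag1, a ligand, was at 7.74, 7.68 and 7.80, then 9.64, 10.18 and 10.15, then 9.82 and 9.99. With the deposited scaling the ES minus MEF difference of Rbpj was 0.69, under the threshold, and Maml1 fell under the threshold in several alternatives. The Dtx1 differences were 0.19 and 0.22 without suffixed probe sets. With the mean of probe sets those of Notch4 were 0.50 and 0.91 and the ES minus MEF difference of Lfng was -0.94, and 1 member was lower than in both.

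Integrin and proteoglycan genes held several shared low members, a class that held 4.70% of all genes. Of 15 measured integrins, Itga8, Itgb8, Itga1 and Itgav were lower in ES cells than in both and none was higher than in both; the count of 4 was 2 without MEF 2, and 1 with the mean of probe sets or a pseudocount of 64. Without MEF 2 the Itga1 difference from MEF was -1.04 (limma adjusted p = 0.0947), and with the mean of probe sets it was -0.87. Itgav, the alpha V chain, was at 9.26, 9.19 and 8.94 in ES cells, 10.41, 10.10 and 10.11 in NPC and 11.81 and 11.71 in MEF. Its ES minus NPC difference of -1.08 lay at the threshold, and it was under it, at -0.99 to -0.49, with median centring, the deposited scaling, array weights or the mean of probe sets, and without ES 3 or NPC 1. Itga8 was at 5.92 on NPC 1 and at 9.35 and 9.31 on NPC 2 and NPC 3, and its call against MEF was lost when any ES or MEF array was left out. Of 16 measured heparan sulfate proteoglycan genes, Sdc3, Hs6st2, Gpc6 and Gpc1 were lower than in both, among them Sdc3 (syndecan 3) by 3.16 ± 0.25 and 3.05 ± 0.28. Cadherins were exchanged: Cdh2, which encodes N-cadherin, was at 5.57, 6.01 and 5.31 in ES cells, 9.64, 9.21 and 9.18 in NPC and 10.05 and 10.13 in MEF, while Cdh1 lay the other way. Vim, the filament protein vimentin, was 9.79-fold below NPC and 12.2-fold below MEF. Of 22 measured mesenchymal and filament genes, Cdh2, Vim, Nes and Itgav were lower than in both, and the neuronal filament genes Nefl, Prph and Ina higher; with the mean of probe sets the Prph differences were 0.49 and 0.60, under the threshold.

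**Figure D4:**
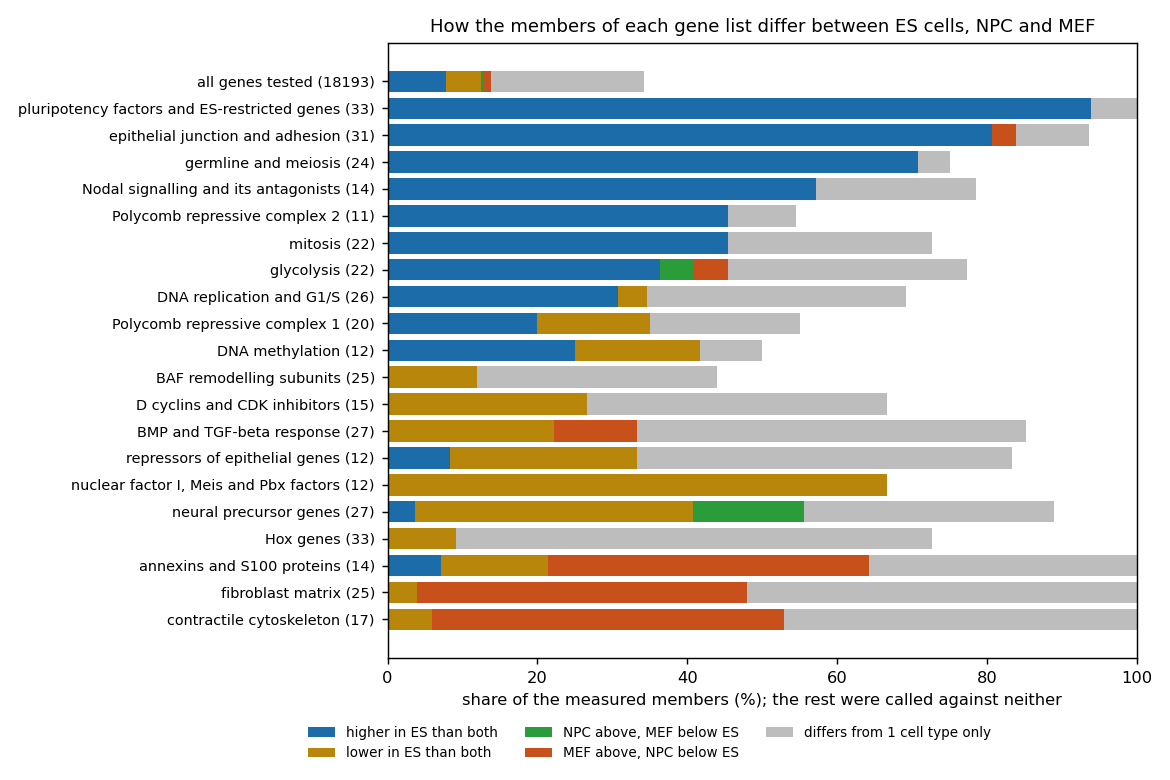
Bars give, for each gene list, the percentage of measured members (number in brackets) called higher or lower in ES cells than in both cell types, in opposite directions, or against 1 cell type only; the top bar is for all 18193 genes. Pluripotency and epithelial lists are mostly higher than in both, the nuclear factor I, Meis and Pbx list holds 8 of 12 lower than in both, and fibroblast matrix and contractile genes hold the greatest shares with MEF above and NPC below.

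In 233 genes NPC and MEF differed from ES cells in opposite directions. The 3 cell types were on separate levels for all of these genes on the 8 arrays, with ES cells in the middle. The genes were chosen for a call on each side of ES cells, so this order largely follows from the choice. The share of all genes in this order was not counted. The mean contrast does not see most of the 233 genes: it called 10 higher and 36 lower in ES cells and left 187 uncalled. With NPC above and MEF below ES cells were 52 genes, with medians of 6.72 in ES cells, 8.79 in NPC and 4.83 in MEF, and 7 reached 2 log2 units in both directions. With MEF above and NPC below were 181 genes, with medians of 6.95 in ES cells, 4.86 in NPC and 9.61 in MEF, and 44 reached 2 log2 units. With the deposited scaling the classes held 28 and 309 genes.

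The NPC side was led by Olig2 and Olig1, helix-loop-helix factors of the oligodendrocyte lineage. Olig1 was at 9.28, 9.30 and 9.29 in ES cells, 12.69, 12.86 and 12.83 in NPC and 4.08 and 4.10 in MEF. Olig2 was at 7.65, 7.79 and 7.91 in ES cells, 11.86, 11.25 and 11.12 in NPC and 4.35 and 4.18 in MEF, and its mean contrast was -0.05 ± 0.17. Neither gene had a MEF array above 4.35, so both were well above the bottom of the range in ES cells and near it in MEF. Pou3f1 (Oct6), a POU factor of the epiblast and the neural lineage, was at 7.61, 7.60 and 7.71 in ES cells, 8.68, 10.74 and 10.49 in NPC and 4.38 and 4.68 in MEF. Aldoc, the brain form of aldolase, was at 9.72, 9.73 and 9.80, then 12.27, 11.92 and 11.87, then 4.90 and 4.25. The Aldoc value rests on a suffixed probe set, and without it the ES minus MEF difference was 0.20. Fgf1, an acidic FGF, St8sia1, a ganglioside sialyltransferase, Rtn1, a reticulon of neurons, and Amph, the endocytic protein amphiphysin, completed the 8 genes. Their ES minus NPC differences were -2.13 ± 0.28, -3.35 ± 0.33, -3.12 ± 0.42 and -1.72 ± 0.13, and their ES minus MEF differences 2.16 ± 0.31, 2.07 ± 0.37, 2.04 ± 0.47 and 2.72 ± 0.15. Without MEF 2, the ES minus MEF difference of Rtn1 was 1.76 and no longer called. Amph has only a suffixed probe set and was not measured without such sets.

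Of 27 measured neural precursor genes, 10 were lower in ES cells than in both cell types, 8 than in NPC alone, and Olig2, Olig1, Ncan and Pax6 were in the opposite class with NPC above and MEF below. The 10 shared genes were Ptn, Vim, Ptprz1, Nes, Zic1, Nfia, Fabp7, Gpm6b, Lhx2 and Sox9, which MEF therefore carried above ES cells too; the ES minus MEF difference of Gpm6b turned to 0.24 without suffixed probe sets. Nes, the filament nestin used to mark neural precursors, was at 5.82, 6.05 and 5.27 in ES cells, 9.57, 9.86 and 9.68 in NPC and 8.64 and 8.70 in MEF. Zic1, a zinc finger factor of the neural plate, was at 4.25, 4.11 and 4.50 in ES cells, 9.61, 10.11 and 9.84 in NPC and 7.22 and 7.24 in MEF. MEF lay between ES cells and NPC for both, and nearer to ES cells for the radial glial gene Fabp7, at -2.07 ± 0.18 for ES minus MEF against -8.60 ± 0.16 for ES minus NPC. Pax6, a homeodomain factor of the forebrain, was at 6.67, 6.70 and 6.80 in ES cells, 7.88, 7.61 and 7.78 in NPC and 5.10 and 4.75 in MEF; with the mean of probe sets neither of its differences (-0.54 and 0.77) passed the threshold. With a pseudocount of 64, 6 members were lower than in both. Prom1, which encodes the surface marker CD133, was the only measured member of this list higher in ES cells than in both.

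The MEF side was led by S100a6, Lox, Anxa3, Anxa2, Ahnak, Tpm2, Ccn2 and Tagln. S100a6, a calcium-binding protein, was at 9.44, 9.25 and 9.10 in ES cells, 4.37, 4.86 and 4.42 in NPC and 12.89 and 12.90 in MEF. Lox, which crosslinks collagen, was at 8.10, 8.07 and 8.45 in ES cells, 4.84, 4.84 and 4.17 in NPC and 12.84 and 12.76 in MEF. Tagln, the actin-binding protein transgelin, was at 9.40, 9.65 and 9.42, then 4.10, 4.07 and 4.43, then 12.60 and 12.63. In all 3, ES cells were more than 3 log2 units from both other cell types. Ccn2, a matrix-bound growth factor modulator, differed by 5.38 ± 0.20 from NPC and -3.35 ± 0.22 from MEF, Anxa3, a membrane-binding annexin, by 3.70 ± 0.19 and -3.49 ± 0.22, and the scaffold protein Ahnak by 3.54 ± 0.29 and -3.41 ± 0.32. S100a6, Anxa2 and Tpm2 (beta-tropomyosin) rest on suffixed probe sets of the kind for transcripts of 1 gene. Without these, Anxa2 differed by -0.01 and -0.07 and Tpm2 by 0.28 from NPC, and neither gene was called in both directions. S100a6 has no other probe set and was not measured there.

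**Figure D5:**
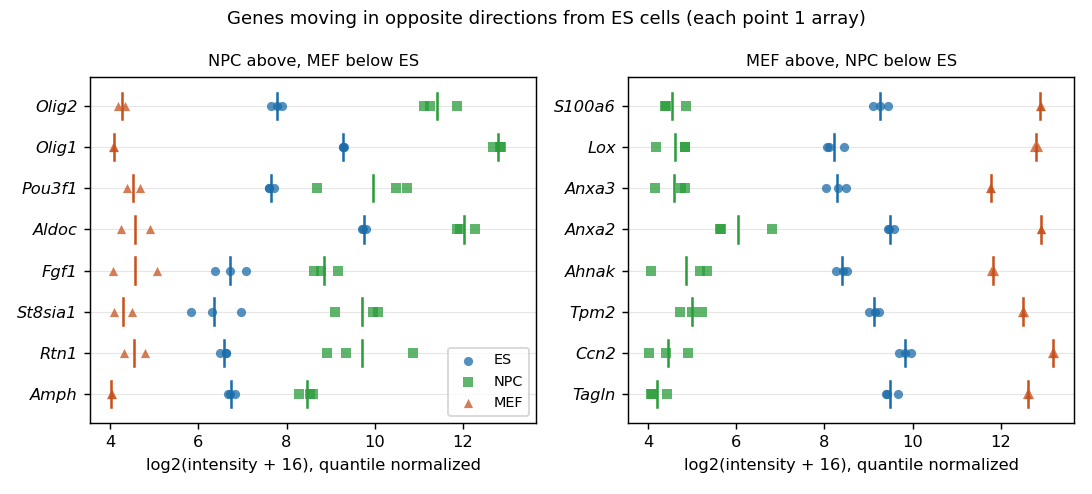
Points are single arrays on the log2(intensity + 16) scale for the 8 genes of each opposite class with the greatest smaller difference, NPC above and MEF below ES cells on one side and MEF above and NPC below on the other, with group means as vertical lines. ES arrays lie between the other groups for each gene, as for Olig1 with ES cells at 9.28 to 9.30, NPC at 12.69 to 12.86 and MEF at 4.08 to 4.10.

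The opposite direction was common among genes of the actin cytoskeleton and matrix. Of 17 measured contractile genes, 8 had MEF above and NPC below ES cells, 8 were lower in ES cells than in MEF alone, and Tpm4 was lower than in both; without suffixed probe sets 5 members were in the opposite class. Of 25 measured fibroblast matrix genes the counts were 11, 13 and 1 (Tnc). Bgn, the proteoglycan biglycan, was at 7.77, 7.83 and 7.22 in ES cells, 4.43, 4.73 and 4.57 in NPC and 12.74 and 12.74 in MEF. Fn1, which encodes fibronectin, was at 11.67, 11.60 and 11.77, then 7.67, 8.02 and 7.92, then 12.90 and 12.98, so that ES cells were nearer to MEF; its call against MEF ended with the mean of probe sets and with scaling to the 2% trimmed mean. Of 14 measured annexins and S100 genes 6 were in this class. Without suffixed probe sets 2 were, but S100a6 was not measured there. Igf2, the imprinted growth factor, belonged to it too, at 7.57, 7.57 and 7.83 in ES cells, 4.92, 5.81 and 5.35 in NPC and 12.60 and 12.64 in MEF.

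Fibroblast markers were examined beside this class because the ES cells had earlier grown on feeder fibroblasts. The summed normalized intensity of 12 measured markers was 337 to 345 on the ES arrays, 168 to 204 on the NPC arrays and 34453 to 34911 on the MEF arrays. With the NPC level subtracted from both, the ES level of the 11 markers called higher in MEF was -5.66% to 1.68% of the MEF level, with a median of 0.386%. Of the 12, Thy1, Pdgfrb, Col1a1 and Col1a2 were in the opposite class, 7 were lower in ES cells than in MEF alone and Tcf21 was called against neither. Thy1 belonged there narrowly: its ES minus NPC difference of 1.02 was 0.94 to 0.97 with the other scalings, 0.50 with a pseudocount of 64 and 0.89 to 0.998 without any 1 of ES 1, ES 3, NPC 2, NPC 3, MEF 1 and MEF 2. With a pseudocount of 64, 0 markers were in the opposite class.

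Markers of other cell types were present to differing degrees. The summed intensity of 14 macrophage markers was 655 to 716 in ES cells, 133 to 151 in NPC and 1757 to 1776 in MEF, and 10 of the 14 were lower in ES cells than in MEF alone, among them C1qa, which was near no signal in ES cells and NPC (both 4.1). The ES cell sum came mostly from Laptm5 and Cd68, both called higher than in NPC and MEF; for Cd68 the ES minus MEF difference was 0.60 with the deposited scaling. Without suffixed probe sets the sign of Laptm5 turned, with differences of -0.74 from NPC and -0.75 from MEF. For 13 endoderm and mesendoderm markers the sums were 1260 to 1499, 126 to 220 and 1480 to 1545, and Cubn, Amn, Sox7, Eomes and Sox17 were higher in ES cells than in both. With a pseudocount of 64 only 1 endoderm or mesendoderm marker was higher than in both. The ES minus NPC difference of Sox7 was 0.97 with the mean of probe sets, under the threshold. For 16 neuron markers the sums were 3982 to 4135, 2690 to 3863 and 1029 to 1081, with 5 higher in ES cells than in both and Gap43 and Map2 lower, and for 10 endothelial markers they were 254 to 281, 66 to 163 and 101 to 131, with 2 higher. The part of such cells in the differences was not tested.

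Genes with a large mean contrast but a call against only one cell type show where the mean reflects a single cell type. Hspb1, a small heat shock protein, was 6.89 ± 0.10 above NPC and 0.82 ± 0.12 above MEF, and Mid1, a microtubule-associated ubiquitin ligase, was 0.02 ± 0.12 from NPC and 5.18 ± 0.13 above MEF. Neurod1, a neurogenic factor, was 0.88 ± 0.32 from NPC and 4.47 ± 0.36 above MEF. Gpm6a, a neuronal membrane protein, and Kcnd3, a potassium channel subunit, were 6.34 ± 0.25 and 6.06 ± 0.22 below NPC and differed from MEF by -0.26 ± 0.27 and -0.06 ± 0.25. Prrx1, a homeodomain factor of mesenchyme, was 63.9-fold below MEF and differed from NPC by -0.96 ± 0.19. Col3a1, a fibrillar collagen, and Cdh11, a mesenchymal cadherin, were 6.98 ± 0.36 and 6.64 ± 0.22 below MEF and differed from NPC by 0.40 ± 0.33 and 0.33 ± 0.20. For 3 of the 12 genes so named, NPC 1 stood far from the other NPC arrays. Rps4l, a ribosomal protein gene copy, was at 8.58, 4.07 and 4.13 in NPC, and Pmaip1, the apoptosis gene Noxa, at 6.25, 4.29 and 4.32. Ctse, a cathepsin, was at 6.89, 12.61 and 12.89, and without suffixed probe sets its ES minus NPC difference was -0.03.

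Of 21 measured MHC class I and interferon genes, Ifitm1, Bst2 and Psmb9 were higher in ES cells than in both, 7 more than in NPC alone, and B2m was lower. Ifitm1, an interferon-induced membrane protein also found on germ cells, was at 12.05, 11.96 and 12.07 in ES cells, 5.26, 4.30 and 4.84 in NPC and 7.31 and 7.52 in MEF. B2m, the light chain of MHC class I, was 1.94 ± 0.14 below NPC and 2.92 ± 0.16 below MEF. Of 14 measured amino acid and one-carbon genes, the transporter Slc7a3 and the enzymes Mthfd1 and Gldc were higher than in both. The transporter Slc7a11 was lower than in both, and 6 genes were lower than in NPC alone (5.06% of all genes). Lower than in both were 5 after median centring and 6 with the deposited scaling. Gldc, the glycine decarboxylase, was at 9.60, 9.53 and 9.62 in ES cells, 8.45, 8.38 and 7.92 in NPC and 4.23 and 4.55 in MEF. Of 11 basement membrane genes, Lama1 and Nid2 were higher than in both, of 6 caveolar genes Ehd2 was lower, and of 24 lysosomal genes Gla was higher, a call lost after median centring, with the deposited scaling and with the mean of probe sets. Among all genes, 7.77% were higher and 4.70% lower than in both, so these small counts are not read as traits of the lists.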

How the data were processed

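Messenger RNA of 3 ES, 3 NPC and 2 MEF samples was measured, 1 array each. The values that the authors deposited are linear probe set intensities; per the submitters' processing notes they were made with GCOS 1.4, and its scaling settings are not given in the sources used here. Of 45101 probe sets, 64 controls were left out, and the 34945 listed with a single gene were used. For each of 18193 genes the probe set with the highest mean over all arrays was kept (9010 genes had more than 1), so genes that share sequence may be mixed. Values were transformed to log2(intensity + 16), quantile normalized and fitted in limma 3.58.1 (R 4.3.3) in a joint model of the 3 groups, with eBayes trended on intensity, so the MEF pair shares the pooled spread. ES was set against the mean of the NPC mean and the MEF mean, against each, and NPC against MEF. A gene was called at a Benjamini-Hochberg adjusted p under 0.05 over all genes and at least 1 log2 unit. The procedure was tested on simulated data.

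The members and the gene lists (711 of 756 list entries measured) were chosen with earlier results of these data known. Named were 193 genes: the 4 markers, the 10 with the greatest smaller difference among genes called the same way against both whose ES arrays stood apart, the 8 in each opposite class, the 5 in each direction alike in NPC and MEF, the 3 in each direction and cell type called on 1 side only, up to 3 members of each list in each direction and 2 in each opposite class, and exceptions. A further 46 genes, such as Dnmt1, Ezh2, Smarca4, Nodal, Suz12, Meis2, Zic1, Fn1 and Bgn, were named after their values were seen. Alternatives covered scaling, pseudocount, dim genes, probe set choice, variance trend, array weights, replicate number, contrast weights, thresholds and each array left out. Promoter windows came from RefSeq, and no detection calls were used.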

Additional observations from a re-analysis of the deposited data

Results flagged for a closer look

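Of the 233 genes in which the 2 lineages differed from ES cells in opposite directions, 16 are given here, the 8 of each class with the greatest smaller difference. The test of that difference is NPC minus MEF in the same limma fit of 3 NPC and 2 MEF arrays. On the NPC side the difference was 8.71 for Olig1, 7.45 for Aldoc, 7.15 for Olig2, 5.44 for Pou3f1, 5.42 for St8sia1, 5.16 for Rtn1, 4.44 for Amph and 4.29 for Fgf1. The limma adjusted p ran from 1.27e-10 for Olig1 to 3.24e-05 for Pou3f1, whose NPC 1 array (8.68) lay below NPC 2 and NPC 3 (10.74 and 10.49).

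On the MEF side it was -8.73 for Ccn2, -8.41 for Tagln, -8.35 for S100a6, -8.18 for Lox, -7.52 for Tpm2, -7.18 for Anxa3, -6.95 for Ahnak and -6.87 for Anxa2. The limma adjusted p ran from 2.31e-09 for Tagln to 4.20e-07 for Ahnak. The genes were chosen for these signs, so the values describe them and do not support the choice. No group has the 4 arrays that a test for a single outlying array needs.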

How the results depend on the processing

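The 6 counts of genes (higher and lower than the mean of NPC and MEF, higher and lower than both, NPC above and MEF below, MEF above and NPC below) were 2074, 1838, 1414, 855, 52 and 181. They moved by more than 1.5 times in the following cases. The deposited scaling gave 903 higher than both, 28 and 309. A pseudocount of 1 gave 87 with NPC above, and the mean of probe sets gave 31. A pseudocount of 64 gave 1226, 1134, 872, 489, 15 and 83, and a threshold of 2 log2 units 640, 522, 444, 216, 7 and 44. Leaving out each array in turn gave 2024 to 2126, 1774 to 1892, 1363 to 1439, 796 to 906, 47 to 57 and 172 to 198. Of the 903 genes higher than both with the deposited scaling, 892 were among the 1414.

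No pairing of arrays by replicate number was seen in the deviations from group means. These correlated at -0.02 to 0.02 for same-numbered arrays (7 pairs) and at -0.03 to 0.04 for differently numbered ones (14 pairs). ES 1 correlated more with NPC 2 than with NPC 1. The deviations of MEF 1 and MEF 2 are exact opposites by construction, so the pairs are not independent and the check cannot exclude pairing. With the replicate block the counts were 2088, 1831, 1426, 855, 53 and 183.

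For 452 called differences of the 239 named genes (46 of them named after their values were seen) under 21 alternatives, 9053 of 9444 values kept direction and side of the threshold, 385 fell under it and 6 reversed. All 6 reversals came without suffixed probe sets: ES minus NPC of Anxa2 (-0.0059), Laptm5 (-0.741), Lmna (-0.0174) and Pdgfrb (-0.0811), and ES minus MEF of Laptm5 (-0.753) and Gpm6b (0.24). That alternative reads these genes from another probe set. Genes with no unsuffixed probe set, such as Cav1, Dnmt3l and S100a6, have no value in it. At least 1 call ended or turned for 48 named genes with a pseudocount of 64, 40 with the mean of probe sets, 25 with the deposited scaling, 22 without suffixed probe sets and 12 with median centring. Among genes named after their values were seen, leaving out 1 array ended calls of Lin28b (0.91 and 0.89 without ES 1, 0.99 without MEF 2), Sox17 (0.95 without ES 1 or MEF 2), Rbbp5 (0.9995 without ES 3, 0.95 without NPC 3), Notch3 (0.99 without NPC 3), Trim28 (0.99 without ES 3), Tgfb1 (0.84 without NPC 1), Pax6 (-0.98 without NPC 1), Rbl2 (-0.97 without ES 1, MEF 2 or NPC 3) and Lhx2 (-1.38, limma adjusted p = 0.0686, without MEF 2). Of 135 genes named by rule with further probe sets, 110 had all on the same side of the mean contrast, and Il6st, Mycn and Tpm2 had one opposite by at least 1 log2 unit. The number of arrays limits precision, and for genes near 4 on the scale the size of a fold depends on the pseudocount.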

Other observations

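Insulin-like growth factor genes showed 3 different orders of the cell types. Igfbp5, a secreted IGF-binding protein, was lowest in ES cells at 4.43, 4.52 and 4.28, with 7.40, 7.69 and 7.77 in NPC and 8.73 and 8.98 in MEF. Igf2bp1, an mRNA-binding protein, was highest in ES cells at 10.27, 10.26 and 10.30, with 4.35, 4.56 and 4.16 in NPC and 8.41 and 8.41 in MEF. Igfbp7 was intermediate in ES cells at 7.38, 7.60 and 7.59, with 5.15, 5.03 and 5.25 in NPC and 11.74 and 11.73 in MEF. With the mean of probe sets the ES minus NPC difference of Igfbp7 was 0.91, under the threshold.

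Of 6 measured genes of caveolae, membrane pits rich in cholesterol, Cav1 and Cavin1 had MEF above and NPC below ES cells. Cav1 was at 6.52, 6.54 and 6.59 in ES cells, 5.51, 5.29 and 4.68 in NPC and 12.09 and 12.08 in MEF. The ES minus NPC difference of 1.39 ± 0.19 was 0.75 with a pseudocount of 64, under the threshold. That of Cavin1 was 0.34 with the mean of probe sets, 0.87 with a pseudocount of 64 and 0.07 without suffixed probe sets. The class held 1 of the 6 genes with the mean of probe sets and 0 with the pseudocount of 64. It also held 0 without suffixed probe sets, but Cav1 has no other probe set and was not measured there. Stmn2, a microtubule regulator of neurons, was higher in ES cells than in both, at 11.43, 11.40 and 11.45 against 4.41, 4.60 and 4.15 in NPC and 8.93 and 8.86 in MEF.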
